A study of Homo sapiens with 3 samples.

Results

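The dual-specificity MAP kinase phosphatases are a family of 10 genes (DUSP1, DUSP2, DUSP4, DUSP5, DUSP6, DUSP7, DUSP8, DUSP9, DUSP10 and DUSP16) whose transcripts were measured in A549 cells, a human lung adenocarcinoma line of epithelial origin. The members were taken by symbol: every non-control probe whose transcript accession belonged to one of these 10 genes in the RefSeq gene table of GRCh38.p14 was kept, which gave 12 of 58201 probes and 10 of 22435 named genes. DUSP8 had 3 probes and every other member had 1. The 3 samples were A549 cells kept for 48 h with 0.1% DMSO (the control), with cordycepin at 60 μg/mL, or with cordyceps at 100 μg/mL. The labels give DMSO for the control only and do not say whether the treated cultures also received it. All 3 cultures shared a DMEM medium with serum and antibiotics to which nicotinamide, troglitazone and zinc sulfate had been added. Cordycepin is 3'-deoxyadenosine, an adenosine analog, and Cordyceps is the fungal genus for which it is named; the labels do not say how the cordyceps material was prepared. Each condition was a single 1-colour Agilent array, so every value below compares 1 array with 1 array, without replicates and without a test.

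MAP kinase phosphatases switch off the MAP kinases ERK, JNK and p38 by removing phosphate from both the threonine and the tyrosine of the activation loop. Many of them are transcribed in response to the kinases they act on, and they are therefore known as negative feedback regulators. The family is commonly divided into inducible nuclear enzymes (DUSP1, DUSP2, DUSP4 and DUSP5), cytoplasmic enzymes that prefer ERK (DUSP6, DUSP7 and DUSP9) and enzymes that prefer JNK and p38 (DUSP8, DUSP10 and DUSP16).

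The promoters are shown for DUSP1 and DUSP8, the members in which a searched motif was found, and for DUSP10, which passed the 2-fold threshold with cordycepin. Each sequence is the 250 bases before a transcription start in the RefSeq annotation of GRCh38.p14, read 5′ to 3′ on the strand of the gene, and all of these genes lie on the minus strand. The windows are chr5:172771196-172771445 for DUSP1, chr11:1572272-1572521 for DUSP8, and chr1:221736901-221737150 and chr1:221742090-221742339 for the 2 starts of DUSP10. Capitals mark matches to the motifs described after the sequences.
DUSP1: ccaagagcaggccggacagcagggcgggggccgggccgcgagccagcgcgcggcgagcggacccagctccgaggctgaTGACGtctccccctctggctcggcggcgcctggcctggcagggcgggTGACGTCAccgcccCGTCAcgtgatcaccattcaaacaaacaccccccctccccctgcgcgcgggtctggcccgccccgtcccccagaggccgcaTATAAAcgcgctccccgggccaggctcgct
DUSP8: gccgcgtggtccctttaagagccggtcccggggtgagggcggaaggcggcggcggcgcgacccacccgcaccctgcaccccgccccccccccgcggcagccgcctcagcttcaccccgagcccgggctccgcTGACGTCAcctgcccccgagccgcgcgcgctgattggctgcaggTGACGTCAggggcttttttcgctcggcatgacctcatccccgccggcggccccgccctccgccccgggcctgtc
DUSP10 start 1: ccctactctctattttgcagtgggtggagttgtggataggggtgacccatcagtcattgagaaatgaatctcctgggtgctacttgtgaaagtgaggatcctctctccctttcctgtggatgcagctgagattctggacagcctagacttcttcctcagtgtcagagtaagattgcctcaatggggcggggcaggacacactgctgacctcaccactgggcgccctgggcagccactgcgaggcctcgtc
DUSP10 start 2: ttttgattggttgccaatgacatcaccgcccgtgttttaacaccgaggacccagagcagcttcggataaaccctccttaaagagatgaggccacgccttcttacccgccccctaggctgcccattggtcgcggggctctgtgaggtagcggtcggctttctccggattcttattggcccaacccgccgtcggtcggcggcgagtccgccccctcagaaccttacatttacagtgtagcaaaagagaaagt

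The reference table held 10 windows for 8 of the 10 members; DUSP4 and DUSP5 were not among them. Both strands were searched for the cyclic AMP response element (CRE) TGACGTCA, its shorter core TGACG, which lies within the full element and overlaps it, the AP-1 motif TGANTCA, the ETS motif CCGGAAG and the TATA box TATAAA. DUSP1 held 1 full CRE, 125 to 118 bases before its start, and a TATA box 30 to 25 bases before it. DUSP8 held 2 full CREs, 118 to 111 and 74 to 67 bases before its start. Of all 35116 windows in the table, 1.65% held the full CRE, 21.2% its core and 10.7% the TATA box. The AP-1 motif, found in 6.57% of all windows, and the ETS motif, found in 8.52%, had 0 matches among the members. A match is a run of letters in this window and says nothing about the binding of a factor.

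The signals are Agilent processed signals, and ratios were formed after each array's log2 signal was set relative to its own 75th percentile (260.1 on the control array, 224.3 with cordycepin and 260.2 with cordyceps). Of the 58201 probes, 49.0%, 47.5% and 42.1% were well above background on the control, cordycepin and cordyceps arrays. The epithelial and A549 markers EPCAM, KRT7, KRT8, KRT18, CDH1, VIM, ALDH1A1, AKR1B10 and NQO1 were each well above background on all 3 arrays; EPCAM was lower with cordycepin (log2 ratio -1.51), and its part in the results was not tested. Among alveolar markers, NAPSA was well above background on all 3 arrays, NKX2-1 and SFTPC on the control and cordycepin arrays and SFTPB on none. SFTPC was 2.45-fold lower with cordyceps by a signal that was not well above background there. Of 7 markers of other cell types, PTPRC and COL1A1 were well above background on all 3 arrays, CDH5 on the control and cordycepin arrays, and CD3E, PECAM1 and DCN on none, while CD68 had no matched probe. A corner holding 18.8% of the spots stood apart on the cordyceps array: 11.2% of its spots had a local background flagged as an outlier, against 3.16% elsewhere, and 7.35% of its probes were at least 2-fold higher than control, against 2.28% elsewhere. On the cordycepin array those shares of probes were 3.69% and 4.29%. The DUSP6 probe and 2 of the DUSP8 probes lay in that corner.

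With cordycepin, DUSP5 and DUSP10 were at least 2-fold higher than in the control and no member was 2-fold lower. With cordyceps, no member passed 2-fold in either direction by its brightest probe. DUSP4 was 1.75-fold higher with cordycepin and stayed under the threshold. DUSP1, DUSP8 by its brightest probe, and DUSP9 lay within 1.13-fold of control with both agents. DUSP2 and DUSP7 were not well above background on any array.

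These counts were 2 higher and 0 lower of 8 members with cordycepin, and 0 and 0 of 8 with cordyceps. Of all genes tested with cordycepin, 5.95% passed the threshold upwards and 3.57% downwards; with cordyceps these shares were 4.19% and 3.15%. By probe, the members gave 2 higher and 0 lower with cordycepin, where 7.07% and 3.62% of all probes passed. With cordyceps 0 of their probes passed in either direction, where 5.21% and 3.21% of all probes did. The median log2 ratio of the 8 members was 0.26 with cordycepin, from -0.16 to 1.25, and 7 of 8 lay above 0; over the 14600 genes measured on both arrays it was -0.05, with 45.3% above 0. With cordyceps the members' median was 0.03, from -0.43 to 0.53, with 5 of 8 above 0, against -0.11 and 38.6% above 0 over 13889 genes. The inclusion of 8 members rests on detection, which all 8 met on each of the 3 arrays.

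The error of a ratio could be judged only within these arrays. The scanner software gave each bright spot an error of 10.0% of its signal, which puts the SE of a log2 ratio at 0.20. Where a gene had several probes, the log2 ratios of its 2 brightest probes gave a robust SD for a single probe of 0.26 with cordycepin (3675 genes) and 0.20 with cordyceps (3418 genes); the ordinary SDs were 0.37 and 0.36. None of these includes the spread between cultures. Because RNA was taken from whole cultures, fewer cells with a transcript and less transcript per cell cannot be told apart.

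**Figure D1:**
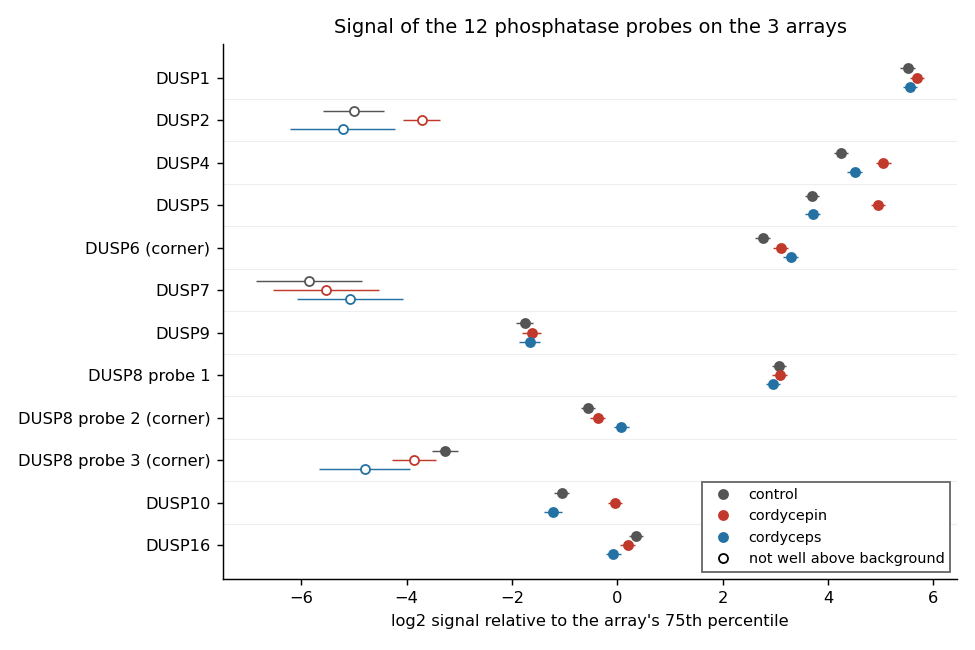
Log2 signal of each of the 12 phosphatase probes relative to the 75th percentile of its array, on the control, cordycepin and cordyceps arrays (1 point per array); bars are the error that the scanner software gave for the spot, and open points were not well above background. The DUSP2 and DUSP7 points are open on all 3 arrays, and the cordycepin points of DUSP4, DUSP5 and DUSP10 lie to the right of the other arrays' points, and positions are not comparable between probes.

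Among the inducible nuclear enzymes, DUSP5, a phosphatase that acts on ERK and can hold it in the nucleus, had signals of 3372 on the control array, 6922 with cordycepin and 3397 with cordyceps. The cordycepin array stood alone, and the other arrays were almost equal. DUSP5 was 2.38-fold higher with cordycepin (log2 ratio 1.25, SE 0.20), a ratio that 2.42% of all probes measured on both arrays reached. With cordyceps it was 1.01-fold (log2 ratio 0.01, SE 0.20), a difference smaller than the spread between probes of a gene.

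DUSP4, a nuclear phosphatase of ERK and other MAP kinases, had signals of 4942 in the control, 7443 with cordycepin and 5912 with cordyceps. The control was the lowest and cordycepin the highest. The cordycepin ratio was 1.75-fold (log2 ratio 0.80, SE 0.20), above the spread between probes of a gene but below 2-fold, and 6.62% of all probes reached it. The cordyceps ratio was 1.20-fold (log2 ratio 0.26, SE 0.20), close to that spread.

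DUSP1, the immediate early phosphatase of p38, JNK and ERK and the first member of the family to be described, was printed as 10 spots, which makes it the best measured member. Its signal over the 10 spots ran from 9272 to 13598 with a median of 12214 on the control array. It ran from 10545 to 12385 with a median of 11764 with cordycepin. It ran from 11573 to 12967 with a median of 12269 with cordyceps. The 3 ranges overlapped, and the widest was that of the control, in which 2 spots lay below the rest.

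On the scaled log2 axis DUSP1 stood at 5.51 ± 0.16 in the control, 5.69 ± 0.08 with cordycepin and 5.56 ± 0.04 with cordyceps (SD over 10 spots of 1 array, technical). For other probes printed 10 times the median SD was 0.06, 0.05 and 0.05 on these arrays, so the control spots of DUSP1 were more scattered than is usual. Taken spot by spot, the cordycepin ratio was 0.17 ± 0.11 on the log2 scale and was above 0 in 10 of 10 spots, from 0.00 to 0.40. The raw signal median was lower with cordycepin than in the control, so this direction comes with the scaling to the 75th percentile. The cordyceps ratio was 0.05 ± 0.13, with 6 spots above 0 and 4 below. The spots share the RNA of their culture and are not replicates of the condition.

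**Figure D2:**
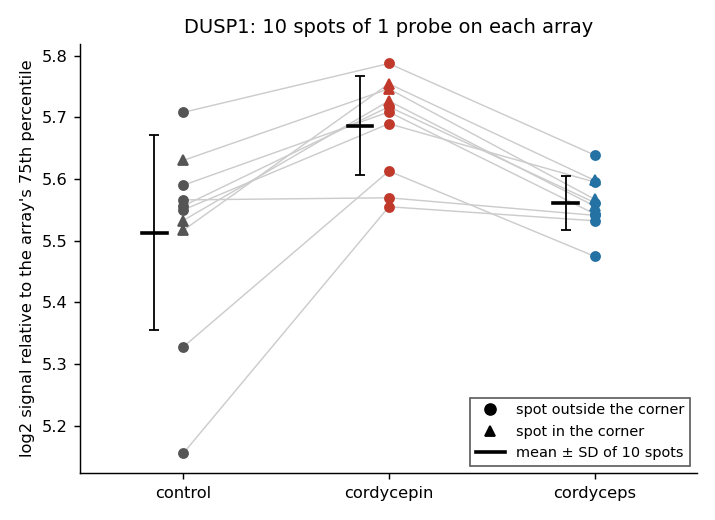
Log2 signal of the 10 spots of the DUSP1 probe relative to the 75th percentile of each array, with lines joining the spot at the same position on the control, cordycepin and cordyceps arrays; triangles are the 3 spots in the corner, and bars are the mean ± SD of 10 spots. The vertical axis covers a narrow range, in which the spots of the 3 arrays overlap and 2 control spots lie below the others.

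DUSP2, an inducible phosphatase best known from activated lymphocytes, had signals of 8.11, 17.1 and 6.99 on the control, cordycepin and cordyceps arrays. None of these was well above background. No ratio is given for it. A probe this dim does not show that the transcript was absent.

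Of the cytoplasmic enzymes, DUSP6, an ERK phosphatase whose own transcription follows ERK activity, had signals of 1760 in the control, 1922 with cordycepin and 2548 with cordyceps. Cordyceps was the highest of the 3. Its ratio was 1.45-fold with cordyceps (log2 ratio 0.53, SE 0.20) and 1.27-fold with cordycepin (log2 ratio 0.34, SE 0.20). The spot lies in the corner that stood apart on the cordyceps array, and there its local background was flagged as an outlier. Of the 148 spots within 10 rows and columns of it that were measured on both arrays, 19.6% were at least 2-fold higher with cordyceps and 25.0% had a ratio as high as that of DUSP6. The part of this corner in the DUSP6 value was not tested, and DUSP6 had no probe outside it.

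DUSP9, a cytoplasmic ERK phosphatase known from placenta and embryonic stem cells, had signals of 76.7, 72.6 and 82.0 on the control, cordycepin and cordyceps arrays. All 3 were well above background and close together. The log2 ratios were 0.13 (SE 0.25) with cordycepin and 0.10 (SE 0.28) with cordyceps, both within the spot error. DUSP7, a cytoplasmic ERK phosphatase, had signals of 4.50, 4.86 and 7.70 and was not well above background on any array.

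Of the enzymes that prefer JNK and p38, DUSP10, also called MKP-5, had signals of 125.1 in the control, 217.6 with cordycepin and 111.8 with cordyceps. As for DUSP5, the cordycepin array stood apart and the other arrays lay together. DUSP10 was 2.02-fold higher with cordycepin (log2 ratio 1.01, SE 0.21), just past the threshold, and 4.07% of probes reached this ratio. That call was lost with 4 of the 10 other ways of processing that gave DUSP10 a ratio, and the lowest log2 ratio among them was 0.70. The median over a gene's detected probes was among these ways and could not change the ratio, as DUSP10 had a single probe. With cordyceps the log2 ratio was -0.16 (SE 0.24), within the spot error.

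DUSP16, also called MKP-7, a phosphatase of JNK that shuttles between nucleus and cytoplasm, had signals of 333.3 in the control, 257.1 with cordycepin and 246.9 with cordyceps. By brightest probe it was the member with the lowest ratio under both agents. The log2 ratio was -0.16 (SE 0.21) with cordycepin, within the spread between probes of a gene. With cordyceps it was -0.43 (SE 0.21), 1.35-fold lower, which did not pass 2-fold; 78.6% of all probes had a ratio as high or higher.

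DUSP8, a phosphatase of JNK and p38 known from brain and heart, was measured by 3 probes that differed from each other. The brightest, outside the corner, had signals of 2177, 1896 and 2023 on the control, cordycepin and cordyceps arrays. Its log2 ratios were 0.01 (SE 0.20) with cordycepin and -0.11 (SE 0.20) with cordyceps, neither beyond the spread.

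The other DUSP8 probes both lay in the corner. The first had signals of 176.8, 173.7 and 273.8, with log2 ratios of 0.19 (SE 0.21) with cordycepin and 0.63 (SE 0.21) with cordyceps. The second had signals of 26.9, 15.4 and 9.38 and was well above background in the control only. With cordycepin it was 1.06-fold lower when set at the detection floor, the dimmest signal that counted as well above background. With cordyceps, where the detection floor lay above its control level, it gave no fold. With cordyceps the first of these probes thus lay above the brightest one, which did not differ from control beyond the spread. A cordyceps ratio as high as that probe's was found in 8.95% of the spots around it and in 7.19% of all probes, and 4.74% of the spots around it were at least 2-fold higher. The part of the corner in its value was not tested.

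**Figure D3:**
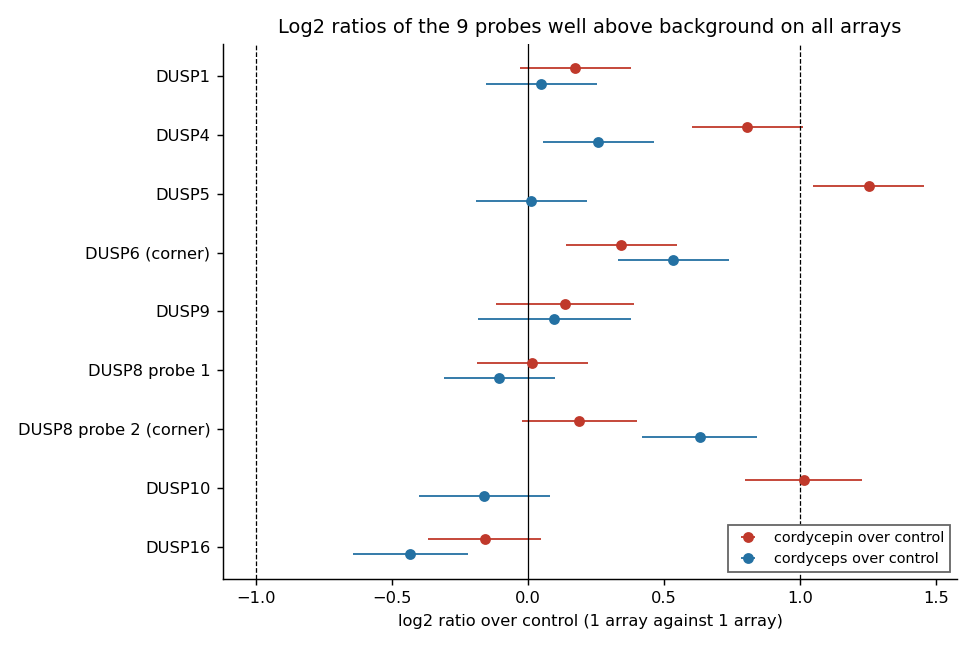
Log2 ratio over control of the 9 member probes that were well above background on all 3 arrays, for cordycepin and cordyceps; bars are the SE from the scanner software's spot errors, dashed lines mark 2-fold, and "corner" marks probes in the corner that stood apart on the cordyceps array. DUSP5 (1.25) and DUSP10 (1.01) with cordycepin lie past the line, and the 2 largest cordyceps ratios, of a DUSP8 probe (0.63) and DUSP6 (0.53), are both in the corner.

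Set out by role, the cordycepin log2 ratios had a median of 0.80 for the 3 measured nuclear enzymes, 0.24 for the 2 cytoplasmic enzymes and 0.01 for the 3 enzymes that prefer JNK and p38. With cordyceps these medians were 0.05, 0.31 and -0.16. All 3 JNK and p38 enzymes lay below 0 with cordyceps by their brightest probes, from -0.43 to -0.11, where the median of all genes was also -0.11. Relative to the median of all probes DUSP8 stood at 0.01 and DUSP10 at -0.04 with cordyceps, and with median scaling both lay above 0 (0.16 and 0.11). These groups are too small for their medians to say more than the single values do, and both sets of ratios share the control array. The doses of the agents differ, so their ratios are given side by side and not compared.

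Scaling set the level of all ratios. When arrays were scaled to the median of all probes, the middle of all ratios shifted by -0.26 on the log2 scale with cordycepin and by 0.27 with cordyceps, and without scaling it shifted by -0.21 with cordycepin. Settings that took off local blocks or left out the corner, moved it by 0.12 with cordyceps. Relative to the median of all probes measured on both arrays, DUSP5 stood at 1.28 with cordycepin (1.21 to 1.39 over the 9 scalings and corrections compared), DUSP10 at 1.04 (0.70 to 1.09) and DUSP4 at 0.83 (0.76 to 0.92). On the same relative scale with cordyceps, DUSP6 stood at 0.65 (0.63 to 0.69 over 8 settings) and DUSP16 at -0.31 (-0.35 to -0.20). A constant shift of a whole array cancels on this relative scale. Scaling to the median, to another percentile or not at all therefore could not move these values. Their ranges come from the other settings and do not show that the ratios withstand a change of scaling.

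**Figure D4:**
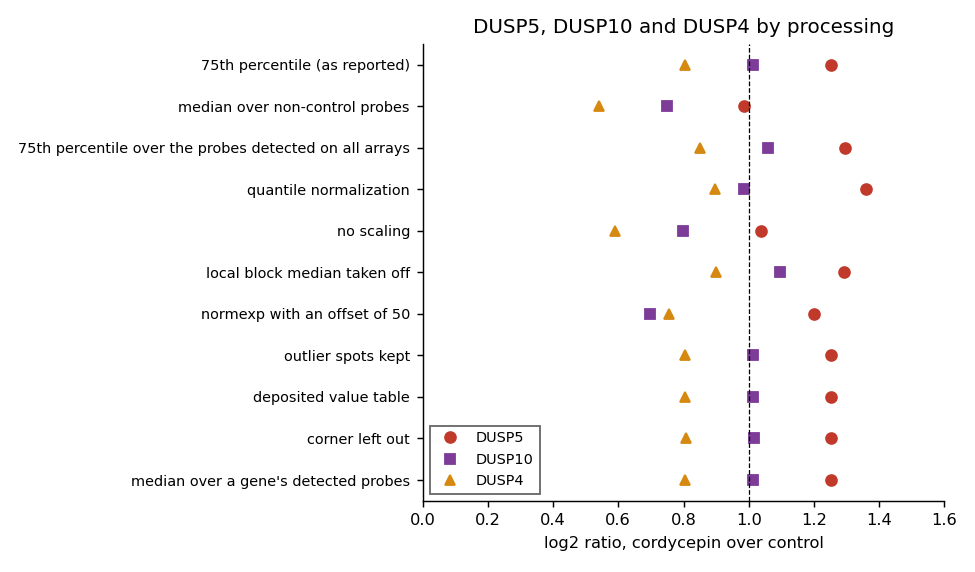
Log2 ratio of DUSP5, DUSP10 and DUSP4 with cordycepin over control, under the reported processing (top) and 10 others, with a dashed line at 2-fold. DUSP5 lies past 2-fold in all but the median scaling (0.99), DUSP10 falls below it in 4, and DUSP4 is below it throughout. Each of these genes has a single probe, so the median over a gene's detected probes could not change its value.

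The same arrays held other genes of the pathway, in lists chosen with earlier results of these data known. Of 17 other dual-specificity phosphatases, 15 had a probe and 13 were tested with cordycepin, of which 2 were at least 2-fold higher and 0 lower, with a median of 0.10; with cordyceps 0 of 13 passed, with a median of -0.17. DUSP13A, an atypical enzyme known from muscle, had signals of 124.6, 369.0 and 103.4 on the control, cordycepin and cordyceps arrays. Its cordycepin log2 ratio was 1.78, and its spot lies in the corner. DUSP26, an atypical phosphatase known from neural tissue, had dim signals of 19.5, 65.1 and 28.8 and a cordycepin log2 ratio of 1.95. DUSP14 had a cordycepin log2 ratio of 0.48 and DUSP3, an atypical ERK and JNK phosphatase also called VHR, one of -0.45; neither passed. With cordyceps the atypical enzymes farthest from 0 among those well above background on all arrays were DUSP18 (-0.52, in the corner), DUSP15 (-0.42) and DUSP23 (-0.30, in the corner), and none passed. Thus 2 of 13 related phosphatases passed 2-fold with cordycepin, beside 2 of 8 members. Over all genes tested, the shares passing were 5.95% higher and 3.57% lower with cordycepin, and 4.19% and 3.15% with cordyceps. Both lists are too small for their counts to be compared with these shares.

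Of 6 phosphatases of other families that act on MAP kinases, 4 were tested with cordycepin and 1 was higher. PTPRR, a receptor-type tyrosine phosphatase that binds ERK, had signals of 18.5, 77.6 and 10.9 and was not well above background in the control. Set against the dimmest signal that counted as well above background there, it was 4.83-fold higher with cordycepin. The median of the 3 measured on both arrays was 0.09 with cordycepin and -0.03 with cordyceps, and 0 passed with cordyceps. Over all genes tested, 5.95% were higher with cordycepin, and 4.19% were higher and 3.15% lower with cordyceps.

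Their substrates did not pass 2-fold: of 10 MAP kinases 8 were tested, and 0 were higher or lower with either agent, with medians of 0.13 and 0.06. MAPK3, which encodes ERK1, had signals of 311.9, 171.1 and 174.9 on the control, cordycepin and cordyceps arrays, and log2 ratios of -0.65 and -0.84. The JNK genes MAPK8 (0.12 and 0.19) and MAPK9 (-0.08 and 0.00) and the p38α gene MAPK14 (0.00 and -0.01) lay near 0 by their brightest probes. The other measured probe of MAPK9 gave 0.61 and -0.45, and the other 2 of MAPK8 gave -0.03 and 0.40 with cordycepin and 0.11 and 0.34 with cordyceps. Of 7 MAP kinase kinases, which activate these enzymes, 0 passed with either agent, with medians of -0.21 and 0.28. Only 5.95% of all genes tested were higher and 3.57% lower with cordycepin, and 4.19% and 3.15% with cordyceps. In lists as small as these, counts of 0 therefore say little about the kinases.

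Among 18 genes whose transcription commonly follows ERK activity, 1 was higher and 1 lower with cordycepin, with a median of 0.01. With cordyceps 0 were higher and 1 lower, with a median of -0.16. Of all genes tested, 5.95% were higher and 3.57% lower with cordycepin, and 4.19% and 3.15% with cordyceps. FOSL1, which encodes the AP-1 protein FRA-1, had signals of 219.1, 501.9 and 219.8. It was higher with cordycepin (log2 ratio 1.41) and at 0.00 with cordyceps. FOS, the immediate early AP-1 gene, had signals of 1076, 417.2 and 509.0 and was lower with both agents (log2 ratios -1.15 and -1.08). The genes of this list thus did not share a direction.

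**Figure D5:**
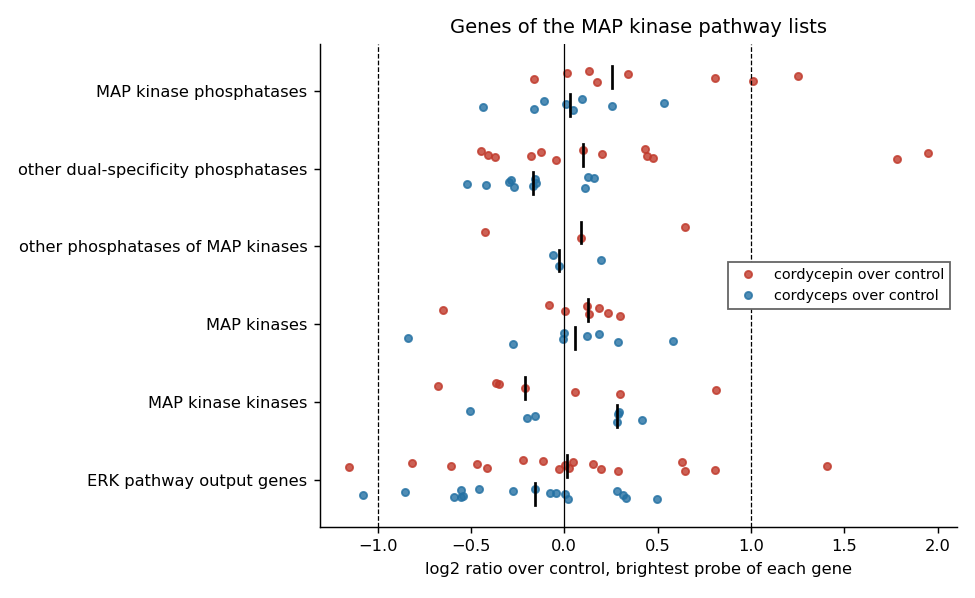
Log2 ratio over control of the brightest probe of each gene measured on both arrays, for the MAP kinase phosphatases and 5 lists of pathway genes, with cordycepin and cordyceps; vertical bars are medians and dashed lines mark 2-fold. With cordycepin the members' median (0.26) lies right of 0 with DUSP5 and DUSP10 past 2-fold, and no MAP kinase or MAP kinase kinase passes; PTPRR, known only as a bound, is not drawn.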

How the data were processed

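The authors deposited the scanner output of 3 one-colour (Cy3) Agilent arrays and a value table, both as intensity. Agilent Feature Extraction 11.5.1.1 subtracted background within each array and nothing scaled the arrays to each other; all 3 were scanned together. The study's methods name Cy3 for vehicle, Cy5 for cordycepin and GeneSpring for normalization, whereas the files hold Cy3 alone. The value table equalled the mean processed signal of each probe (within 0.0001) for 58192 or more of 58201 probes on each array.

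Control and outlier spots (63 to 106 per array; 0 were saturated) were left out. The processed signal was taken to log2, averaged over a probe's spots, and set relative to the 75th percentile of the probes of the array. A probe was well above background where at least 50% of its spots were. A call needed a 2-fold ratio, given as a bound where only 1 of the 2 arrays was well above background. A bound used, for the dim array, the probe's own signal or the dimmest signal that still counted as well above background there, whichever was higher. Where the probe's own signal was used, the bound is the measured ratio and not a minimum. Some probes brighter than that dimmest signal were not well above background, so every bound is nominal. The brightest of a gene's probes stood for it. Accessions matched RefSeq transcripts for 31104 of 58201 probes; the array design is older than that table, which served for names and promoters. With 1 array per condition no test was run, and precision is limited by this number.

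The genes named are all members, the genes of the other lists that passed 2-fold, the 3 other dual-specificity phosphatases with the largest ratios for each agent among those well above background on all arrays, and MAPK3, MAPK8, MAPK9 and MAPK14; some genes of the lists are not reported here. The members and lists were chosen with earlier results of these data known. Alternatives varied scaling, background correction (limma 3.58.1 normexp, offset 50, on median spot signals), outliers, detection, threshold, the corner and the probe standing for a gene. Scripts used Python 3.11.15, numpy 2.4.6, pandas 2.3.3 and R 4.3.3, and the calling was tested on simulated data.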

Additional observations from a re-analysis of the deposited data

How the results depend on the processing

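With cordycepin the count of members at 2-fold or more, 2 by gene and 2 by probe, was 0 with median scaling, 1 with quantile normalization, 1 without scaling, 1 with normexp and 0 at a 3-fold threshold, by gene and by probe alike. The members' median log2 ratio with cordycepin (0.26) was -0.0073 with median scaling, and that with cordyceps (0.03) was 0.30. With cordyceps the count of member probes was 1 (lower) without a detection filter and 1 (higher) at 1.5-fold, in place of 0. These were the 2 DUSP8 probes in the corner. The lower one (log2 ratio -1.52) was not well above background with cordyceps, and the higher one stood at 0.63. The count with cordycepin was 3 without a detection filter and 3 at 1.5-fold. Without the filter the added gene was DUSP2, which was not well above background on any array, and at 1.5-fold it was DUSP4. The share of all genes passing was not taken at these other settings. The members' median with cordycepin was 0.04 without scaling. The single members' ratios were counted once under each setting. Of these, 140 stayed within the robust SD of a single probe (0.26 with cordycepin, 0.20 with cordyceps) of the reported value and 18 moved further. Median scaling moved every one of the members' ratios, with both agents. The only other moves were DUSP10 with cordycepin under normexp and DUSP8 with cordyceps under the median over its probes. These counts say nothing of calls or signs. The count of 140 includes settings that could hardly move a ratio. For members with a single probe the median over a gene's probes is the same value, and the value table holds almost the same signals. DUSP5 with cordycepin ranged from 0.99 (median scaling, the only alternative that ended its call at the 2-fold threshold) to 1.36. DUSP10 ranged from 0.70 (normexp) to 1.09, and its call at the 2-fold threshold ended with median scaling, quantile normalization, no scaling and normexp. The 3-fold threshold ended both calls. The cordycepin ratios of DUSP1, DUSP9 and DUSP8 and the cordyceps ratios of DUSP8 and DUSP10 lay on either side of 0 depending on the setting. DUSP6 gave no value with the corner left out. With 1 array per condition, no array could be left out. No paired analysis was possible because each condition has 1 array.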

Other observations

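The array design also carries 9 probes for long non-coding RNAs that it names after a neighbouring phosphatase gene (names beginning lnc-DUSP), and 2 of them were well above background on at least 1 array. lnc-DUSP1-1:1 had signals of 87.5 in the control, 44.1 with cordycepin and 38.2 with cordyceps. It was well above background on the first 2, with a cordycepin log2 ratio of -0.77. With cordyceps it was 2.29-fold lower by its own signal, which was not well above background there. DUSP1 itself stood at 0.17 and 0.05. lnc-DUSP4-3:1 had signals of 22.4, 32.6 and 8.72 and was well above background with cordycepin only. It was 1.68-fold higher there than in the control by its own dim control signal. These names were matched by their text alone, and no position was checked.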
